A study of Mus musculus with 28 samples.

Results

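The developmental homeobox genes described here are the Hox genes and the members of the Pax, Lhx, Dlx, Irx, Nkx, Msx, Meis, Pbx, Pou4f and Isl families and of the family of Six4 that have a row in a table of gene expression in mouse embryonic stem cells (ESCs). They were chosen by symbol, without Pax6 and Lhx1. No measured value entered the rule, but earlier results of these data were known when it was set. The rule found 49 of the 17342 genes in the table. RefSeq (GRCm38.p6) lists 101 protein-coding genes with symbols of this form, and the other 52 were not analysed here. RNA-seq had been run on V6.5 ESCs, a male line of mixed 129/C57BL/6 background kept in serum with LIF, to ask what Tet2 does for ESC gene expression apart from its catalysis. Tet2-KO cells, without Tet2, gave 2 libraries from 2 clones, Tet2-Mut cells, with a mutant Tet2 that the labels do not describe further, gave 2 libraries from 2 clones, and Tet2-WT cells gave 3 libraries from 3 independent ESC cultures. All groups were grown on feeder cells, pre-plated to take the feeders away and held on gelatin overnight before total RNA was taken.

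Homeobox genes encode transcription factors that assign position and cell identity in the embryo, and most of these factors bind DNA through a homeodomain. The Hox genes lie in clusters and are switched on in their order along the chromosome, so that each level of the body axis carries its own combination, while Meis and Pbx proteins bind DNA together with Hox proteins. In ESCs many of these genes sit in CpG-rich chromatin held silent by Polycomb complexes and are hardly transcribed until the cells differentiate, for example under retinoic acid. Tet2 oxidises methylated cytosine, and it also recruits partner proteins to chromatin.

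The values are reads per gene divided by a size factor for each library, called normalized counts below. The libraries held 41.9 to 58.5 M reads assigned to genes, and the floor used below, set at 3 reads, comes to 2.5 to 3.54 normalized counts. No exon lengths were at hand, so levels are compared between libraries, and means of normalized counts, which grow with gene length, serve only to group genes and to choose which are given. Tet2 itself had 4624 and 5206 normalized counts in Tet2-KO, 9992 and 13181 in Tet2-Mut, and 10343, 10245 and 12074 in Tet2-WT. It was 2.21-fold lower in Tet2-KO than in Tet2-WT (limma, adjusted p = 0.00522). All 12 ESC markers listed, Pou5f1, Nanog and Sox2 among them, were present. Their summed level was 294018 and 347855 in Tet2-KO, 338534 and 353084 in Tet2-Mut, and between 345116 and 351183 in Tet2-WT. Relative to Tet2-WT, Tdgf1 fell in Tet2-KO (limma, adjusted p = 0.0231), Nanog fell in Tet2-Mut (limma, adjusted p = 0.0457) and 0 of the 12 rose. At an adjusted p under 0.05, 5.91% and 3.43% of all genes passed in either direction. The fold change was positive for 2 of the 12 in Tet2-KO, with a median of -0.13 on the log2 scale. In Tet2-Mut it was positive for 6, with a median of 0.0047. The summed level of 24 fibroblast markers, the genes that feeder cells would add, was 19226 and 10624 in Tet2-KO, 8427 and 6012 in Tet2-Mut, and between 5221 and 5959 in Tet2-WT. Library pairs of a genotype were further apart among clones, at a chi-square of 34.15 per degree of freedom in Tet2-KO and 45.1 in Tet2-Mut, than among Tet2-WT cultures, at 7.19 to 13.4, and the p-values below measure the spread between these clones and cultures only.

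Most homeobox genes were read at low depth in every genotype. Of the 49 genes, 15 had a mean below 20 normalized counts over the 7 libraries, 18 had a mean from 20 to below 100, 14 from 100 to below 1000, and 2 of 1000 or more. Those last 2 were Pbx2, which encodes a widely expressed partner of Hox proteins, and Six4, a factor of muscle and sensory development. Listed at 0 in at least 1 library were 5 genes, namely Hoxa5, Hoxa7, Hoxa10, Hoxc4 and Pou4f3. All 49 genes passed the filter on low values, at least 10 normalized counts in at least 2 libraries. In bulk RNA, transcription in a few cells and weak transcription in every cell cannot be told apart.

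**Figure D1:**
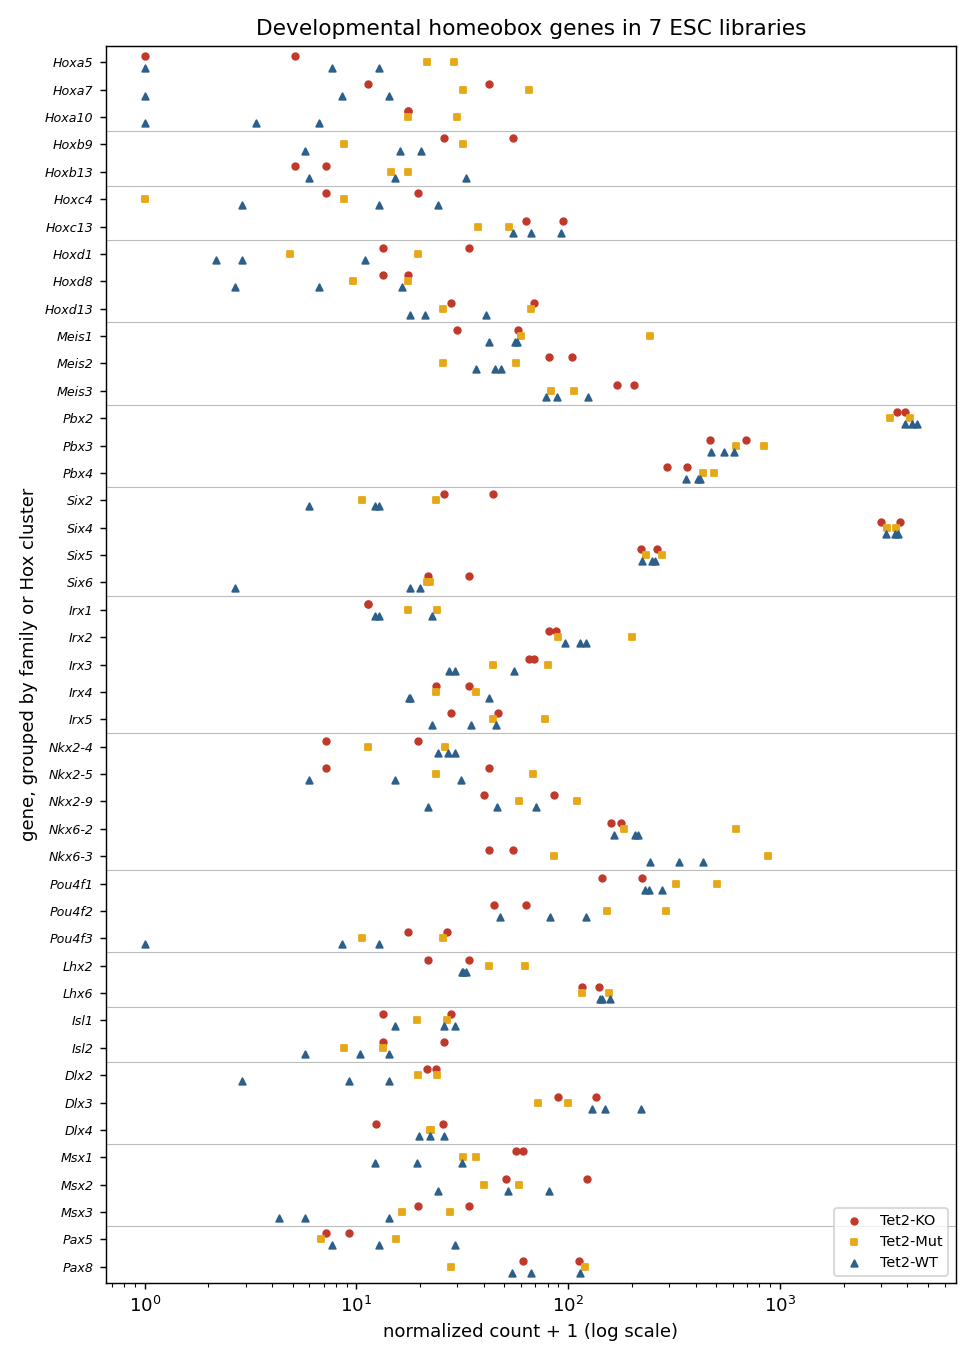
Normalized count plus 1 (log scale) of 45 of the 49 homeobox genes in the 7 libraries, with Tet2-KO as circles, Tet2-Mut as squares and Tet2-WT as triangles, grouped by family or Hox cluster. Pbx2 and Six4 lie at the right with libraries of all groups together, and most Hox genes lie at the left with libraries of a group far apart.

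Only Pou4f1 and Pou4f2, which encode POU homeodomain factors of sensory and retinal neurons, passed the test between any pair of genotypes: both fell in Tet2-KO relative to Tet2-Mut, by 2.25-fold and 3.99-fold. Between Tet2-KO and Tet2-Mut 2 of 49 genes passed (limma with Benjamini-Hochberg adjustment over 17338 genes, at 0.05), against 6.19% of all genes tested or 3.55% for genes that were lower. The same pair was called by edgeR (6.08% of all genes), while DESeq2 called 7 (10.4%). At an unadjusted p under 0.05, 10 of 49 passed, against 20.2% of all genes, and the libraries of the groups did not overlap for 19 of 49, against 44.8% of all genes, with 6 higher (23.3%) and 13 lower (21.5%) in Tet2-KO. The fold change was positive for 22 of 49, against 50.7% of all genes. The share of homeobox genes called, 4.08%, was no larger than that of all genes.

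Relative to Tet2-WT, 0 of 49 genes passed in Tet2-KO (limma), against 5.91% of all genes. At an unadjusted p under 0.05 there were 12, against 23.2% of all genes, edgeR called 0 (6.40% of all genes) and DESeq2 called 3 of the 37 it gave an adjusted p (Meis3 and Msx1 higher, Nkx6-3 lower), against 12.5% of all genes with an adjusted p. The libraries of Tet2-KO and Tet2-WT did not overlap for 22 of 49, against 44.7% of all genes, with 13 higher (21.9% of all genes) and 9 lower (22.8%) in Tet2-KO. The fold change was positive for 27 of 49, against 49.6% of all genes. The median log2 fold change was 0.15 over the homeobox genes and -0.0021 over all genes. The count depended on the Tet2-Mut libraries, which enter the shared estimate of the spread: 5 genes passed without Tet2-Mut replicate 1 or in a fit of Tet2-KO and Tet2-WT alone (12.5% of all genes in both), and 4 without Tet2-Mut replicate 2 (12.4%). Meis3 was higher and Nkx6-3 lower in each of these fits, and Meis2 was higher in the fits that called 5.

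In Tet2-Mut, 0 of 49 genes passed against Tet2-WT (limma), where 3.43% of all genes did. There were 6 at an unadjusted p under 0.05, against 21.1% of all genes, edgeR called 0 (3.36% of all genes) and DESeq2 called 4 of 30 (Meis1, Pou4f1 and Pou4f2 higher, Dlx3 lower), against 10.4% of all genes with an adjusted p. The groups' libraries did not overlap for 15 of 49, against 40.7% of all genes, with 13 higher (20.9% of all genes) and 2 lower (19.8%) in Tet2-Mut. The fold change was positive for 34 of 49, against 51.5% of all genes, with a median of 0.38 on the log2 scale, beside 0.0093 over all genes. Without Tet2-Mut replicate 1 the count was 6 (12.7% of all genes), and without Tet2-Mut replicate 2 it was 1 (1.26%).

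**Figure D2:**
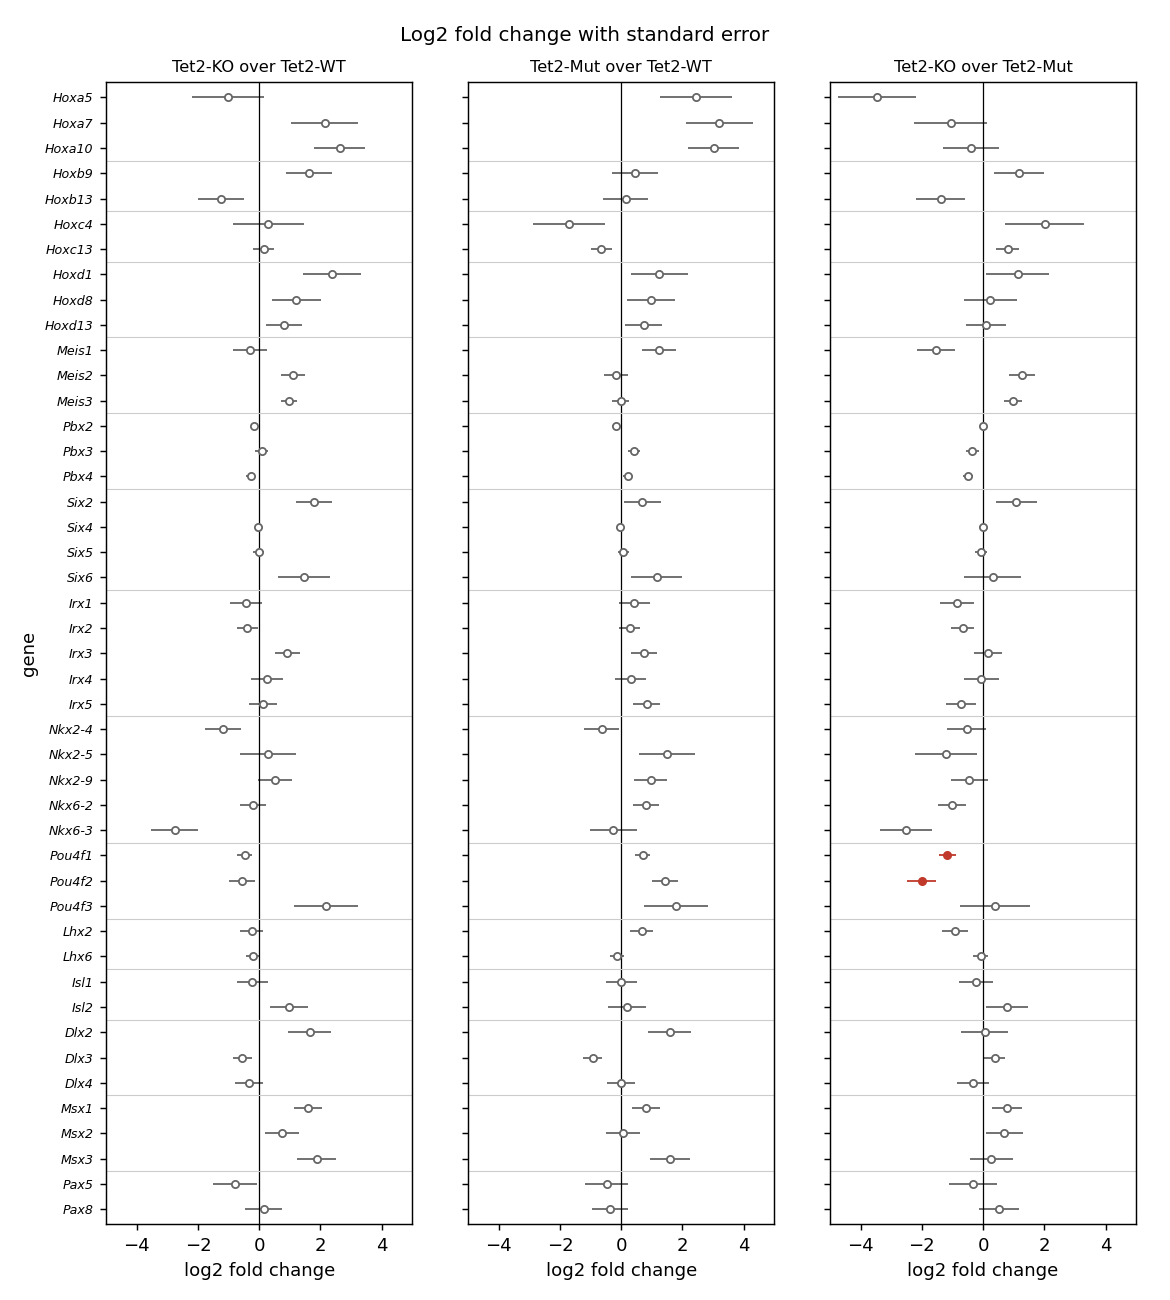
Log2 fold change with its standard error (limma) of the same 45 homeobox genes for Tet2-KO over Tet2-WT, Tet2-Mut over Tet2-WT and Tet2-KO over Tet2-Mut, in family order. Filled points, Pou4f1 and Pou4f2 in the last panel, passed at an adjusted p of 0.05. Hoxa5, Hoxa7 and Hoxc4, with means of 9.93 to 24 normalized counts, have the widest bars.

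Pou4f1 encodes Brn3a, a factor of sensory neurons, and lies on the minus strand of chromosome 14 (104461675 to 104468118). It had 222 and 144 normalized counts in Tet2-KO, 323 and 502 in Tet2-Mut, and 239, 229.7 and 277 in Tet2-WT. Both Tet2-KO libraries were below all Tet2-WT libraries and both Tet2-Mut libraries above them. Between Tet2-KO and Tet2-Mut the log2 fold change was -1.17 ± 0.27 (SE), with an adjusted p of 0.0389 (limma). Neither difference from Tet2-WT passed: the log2 fold change was -0.47 ± 0.25 in Tet2-KO (limma, adjusted p = 0.300) and 0.70 ± 0.25 in Tet2-Mut (limma, adjusted p = 0.158).

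Pou4f2 encodes Brn3b, needed by retinal ganglion cells, and lies on the minus strand of chromosome 8 (78433009 to 78436647). It had 61.9 and 43.4 normalized counts in Tet2-KO, 152 and 289 in Tet2-Mut, and 46.6, 81 and 120.4 in Tet2-WT. Again both Tet2-Mut libraries were above the rest, but here Tet2-KO replicate 1 lay inside the Tet2-WT range and Tet2-KO replicate 2 just below it. The log2 fold change of Tet2-KO over Tet2-Mut was -2.0 ± 0.47 (limma, adjusted p = 0.0409). Against Tet2-WT it was -0.56 ± 0.43 in Tet2-KO (limma, adjusted p = 0.488) and 1.44 ± 0.43 in Tet2-Mut (limma, adjusted p = 0.104). The third paralog, Pou4f3, which is required by the hair cells of the inner ear, had 25.8 and 16.5 normalized counts in Tet2-KO, 24.7 and 9.65 in Tet2-Mut, and 0, 7.53 and 11.8 in Tet2-WT. Its values overlapped between Tet2-KO and Tet2-Mut.

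Both genes lie on chromosomes whose median level was shifted in some of the clones. On chromosome 8, which holds Pou4f2, Nkx6-3, Pbx4, Irx3 and Irx5, the median gene of 860 differed from the Tet2-WT mean by -0.28 and -0.24 log2 units in Tet2-KO and by 0.29 and 0.27 in Tet2-Mut. Of these 860 genes, 3 rose and 396 fell in Tet2-KO relative to Tet2-Mut. On chromosome 14, which holds Pou4f1, the median gene of 568 differed from the Tet2-WT mean by 0.49 log2 units in Tet2-Mut replicate 2 and by -0.047 to -0.0083 in the other clones. After each library was centred on its chromosome medians, a step added after the data had been seen, the log2 fold change of Tet2-KO over Tet2-Mut was -0.92 ± 0.23 for Pou4f1 (limma, adjusted p = 0.0687) and -1.47 ± 0.46 for Pou4f2 (limma, adjusted p = 0.132). The direction was kept and both calls were lost.

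The calls also rested on the spread shared with Tet2-WT and on single libraries. In a fit of Tet2-KO and Tet2-Mut alone, the adjusted p (limma) was 0.189 for Pou4f1 and 0.111 for Pou4f2, and 0 of 17147 genes passed. With a prior without trend the adjusted p (limma) was 0.130 and 0.141, and with a replicate block it was 0.114 and 0.0618. Without Tet2-Mut replicate 2 the adjusted p (limma) was 0.164 for Pou4f1 and 0.180 for Pou4f2, without Tet2-KO replicate 2 it was 0.145 for both, and without Tet2-WT replicate 2 or 3 it was 0.0845 or 0.0770 for Pou4f1 and 0.0879 or 0.0513 for Pou4f2. Pou4f1 also lost its call without Tet2-WT replicate 1 (0.0812), and Pou4f2 without Tet2-KO replicate 1 (0.0918).

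The promoters of these 2 genes are shown because they are the only homeobox genes to pass the test and moved in the same direction. Each run holds 300 bases of the GRCm38.p6 assembly from RefSeq, 250 before and 50 after a transcript start, read 5′ to 3′ on the minus strand, with CpG sites, the target of DNA methylation, in capitals. The start used for Pou4f1 lies inside the annotated span of the gene.
Pou4f1, chr14:104467950-104468249: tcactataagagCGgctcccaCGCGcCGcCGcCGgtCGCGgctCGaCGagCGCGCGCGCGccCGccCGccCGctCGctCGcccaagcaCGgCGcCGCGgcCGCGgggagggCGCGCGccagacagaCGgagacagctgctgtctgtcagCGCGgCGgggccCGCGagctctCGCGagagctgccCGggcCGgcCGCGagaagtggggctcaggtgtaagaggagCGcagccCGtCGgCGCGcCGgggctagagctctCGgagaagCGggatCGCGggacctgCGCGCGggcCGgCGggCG
Pou4f2, chr8:78436598-78436897: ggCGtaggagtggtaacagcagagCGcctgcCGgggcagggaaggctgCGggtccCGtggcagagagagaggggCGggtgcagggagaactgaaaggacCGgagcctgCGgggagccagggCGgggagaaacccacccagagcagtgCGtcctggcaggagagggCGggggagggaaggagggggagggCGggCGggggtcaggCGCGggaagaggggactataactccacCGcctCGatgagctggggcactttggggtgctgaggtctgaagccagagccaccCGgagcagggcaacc
The Pou4f1 run holds 57 CpG sites and 78.3% G or C, and 0.152% of all 32851 promoter entries of this length hold as many or more. The Pou4f2 run holds 18 CpG sites and 69.7% G or C, and 29.7% of all entries hold as many or more. Each has 1 match to TATAA and none to TAAT, the core letters that many homeodomains bind, on either strand, where 24.9% and 58.0% of all entries have a match. Promoter entries were found for 35 of the 49 genes (40 entries), with a median of 21 CpG sites (range 6 to 57), beside a median of 7 over all entries. A match to TAAT was found in 45% of the 40 entries and a match to TATAA in 20%. These are descriptions of the letters in the window, and DNA methylation was not analysed here.

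Among the Nkx genes, Nkx6-3, a factor of gut and hindbrain cells, varied most. It had 41.3 and 53.8 normalized counts in Tet2-KO, 84.4 and 879.8 in Tet2-Mut, and 242, 333 and 431 in Tet2-WT. The Tet2-KO libraries were lowest, Tet2-Mut replicate 1 was next, the Tet2-WT libraries followed and Tet2-Mut replicate 2 was highest, 10.4 times Tet2-Mut replicate 1. The log2 fold change was -2.77 ± 0.77 in Tet2-KO over Tet2-WT (limma, adjusted p = 0.0677). Leaving out a Tet2-Mut library brought that adjusted p to 0.000613 (without replicate 1) or 0.00096 (without replicate 2), and chromosome centring gave -2.51 ± 0.76 with an adjusted p of 0.0908 (limma). In Tet2-KO over Tet2-Mut the log2 fold change was -2.51 ± 0.84 (limma, adjusted p = 0.129), but -4.19 without Tet2-Mut replicate 1 (limma, adjusted p = 0.00017) and -0.83 without Tet2-Mut replicate 2 (limma, adjusted p = 0.316). DESeq2 gave it an adjusted p of 0.0215.

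Its paralog Nkx6-2, on chromosome 7, which acts in oligodendrocytes and the ventral neural tube, had 159 and 177 normalized counts in Tet2-KO, 183 and 620.3 in Tet2-Mut, and 164, 214 and 205 in Tet2-WT. It was chosen after its values had been seen, as were the other genes given below that are neither called nor the member of their family with the highest mean. Tet2-Mut replicate 2 stood alone at the top, and the other 6 libraries lay between 159 and 214. Nkx6-2 overlaps Inpp5a in the annotation, and no source used here says whether reads were counted by strand. Nkx2-4, Nkx2-5 and Nkx2-9 ranged from 4.99 to 109 normalized counts, and 0 of the Nkx genes passed in any comparison (limma).

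Six4 acts in muscle, kidney and sensory placodes. It had 3696 and 3012 normalized counts in Tet2-KO, 3205 and 3544 in Tet2-Mut, and 3517, 3627 and 3189 in Tet2-WT. Its groups overlapped, with log2 fold changes of -0.044 ± 0.10 in Tet2-KO and -0.029 ± 0.10 in Tet2-Mut over Tet2-WT (limma, adjusted p = 0.852 and 0.907). Six4 shares part of its locus with Mnat1 in the annotation. Six2, which keeps kidney progenitors undifferentiated, had 43.4 and 24.8 normalized counts in Tet2-KO, 22.7 and 9.65 in Tet2-Mut, and 4.99, 11.3 and 11.8 in Tet2-WT, with both Tet2-KO libraries highest. Its log2 fold change in Tet2-KO over Tet2-WT was 1.79 ± 0.60 (limma, adjusted p = 0.115). Six5 ranged from 219 to 277 over the libraries, and Six6, a gene of the eye and pituitary, from 1.66 to 33.

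The Meis and Pbx genes are TALE homeobox genes, and their proteins bind DNA together with Hox proteins. Meis2 and Meis3 were highest in Tet2-KO, by amounts that did not pass the test. Meis3 had 204 and 169 normalized counts in Tet2-KO, 82.4 and 105 in Tet2-Mut, and 87.4, 77.2 and 123 in Tet2-WT. Both Tet2-KO libraries were above all others, by 1.97-fold over Tet2-WT on the fitted scale. The log2 fold change was 0.98 ± 0.27 over Tet2-WT (limma, adjusted p = 0.0678) and 0.99 ± 0.30 over Tet2-Mut (limma, adjusted p = 0.0934). Meis2 had 103 and 80.6 normalized counts in Tet2-KO, 24.7 and 56 in Tet2-Mut, and 35.8, 44.2 and 47.2 in Tet2-WT, with the Tet2-KO libraries again on top. Its log2 fold change was 1.10 ± 0.39 in Tet2-KO over Tet2-WT (limma, adjusted p = 0.136) and 1.27 ± 0.43 over Tet2-Mut (limma, adjusted p = 0.134). Meis1, a regulator of blood stem cells, had 56.8 and 28.9 normalized counts in Tet2-KO, 58.7 and 243 in Tet2-Mut, and 54.9, 41.4 and 56.7 in Tet2-WT. There Tet2-Mut replicate 2 stood apart, at 4.14 times Tet2-Mut replicate 1, which lay just above the Tet2-KO and Tet2-WT libraries.

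Pbx2 had 3564 and 3893 normalized counts in Tet2-KO, 3305 and 4124 in Tet2-Mut, and 4442, 3924 and 4217 in Tet2-WT. Both Tet2-KO libraries and Tet2-Mut replicate 1 lay below the Tet2-WT range. The log2 fold change of Tet2-KO over Tet2-WT was -0.17 ± 0.10 (limma, adjusted p = 0.375). Pbx4, on chromosome 8, had 291 and 365 normalized counts in Tet2-KO, 430.4 and 490.1 in Tet2-Mut, and 421, 410.5 and 361 in Tet2-WT. The Tet2-Mut libraries were highest and the Tet2-KO libraries lay below them. Tet2-KO replicate 1 was below the Tet2-WT range and Tet2-KO replicate 2 was inside it, near its bottom. The log2 fold change of Tet2-KO over Tet2-Mut was -0.49 ± 0.17 (limma, adjusted p = 0.146). After centring by chromosome it was 0.029 ± 0.18, so the direction was not kept. Pbx3 ranged from 465 to 839. Of the Meis and Pbx genes 0 passed in any comparison (limma). The other TALE genes in a list of 5, Pknox1, Pknox2, Tgif1, Tgif2 and Mkx, gave 0 calls in all 3 comparisons as well (limma, adjusted p = 0.0548 for Tgif1, the smallest in Tet2-KO over Tet2-WT).

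**Figure D3:**
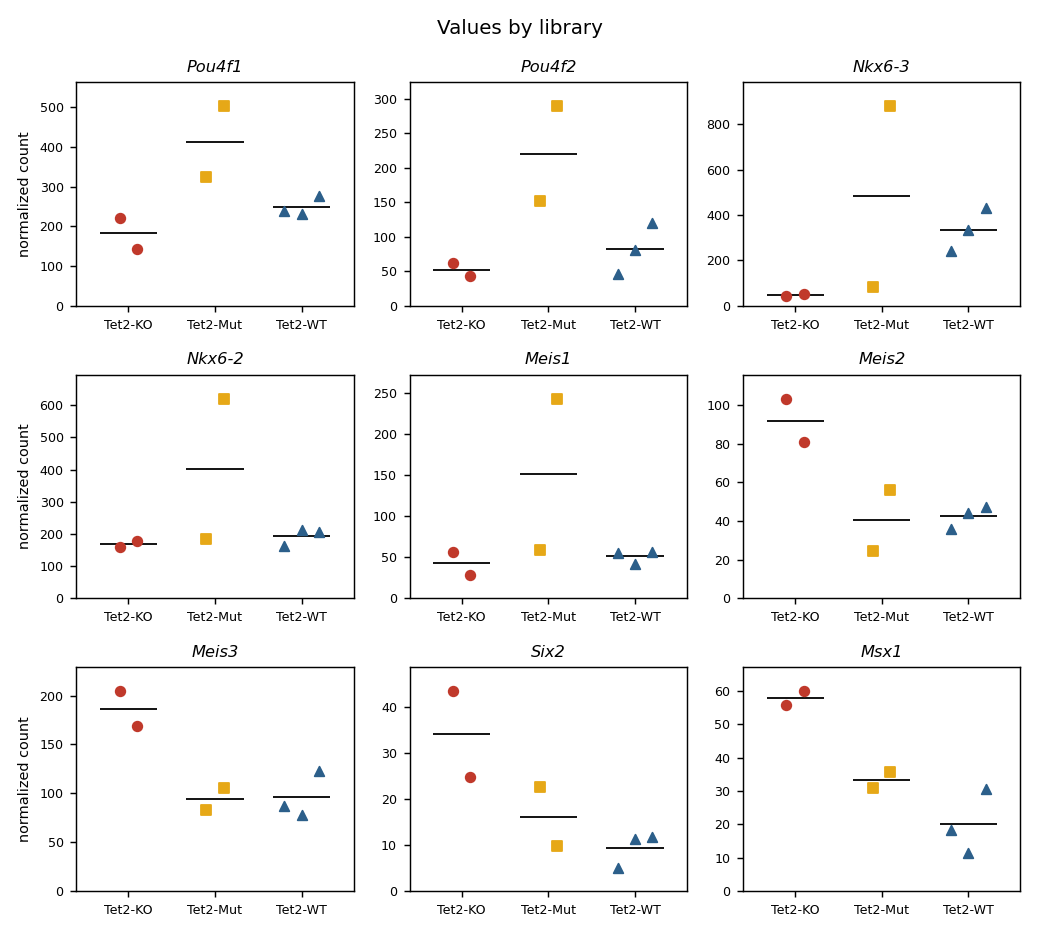
Normalized count by library (points) and group mean (bar) of 9 homeobox genes in Tet2-KO, Tet2-Mut and Tet2-WT. In the panels of Nkx6-3, Nkx6-2 and Meis1 the upper Tet2-Mut point is replicate 2, while in those of Meis2, Meis3, Six2 and Msx1 both Tet2-KO points lie above the other libraries.

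The Hox genes had few reads, and 0 of them passed in any comparison (limma). For Hoxa5, Hoxa7 and Hoxa10 the mean was highest in Tet2-Mut. Hoxa5 had 0 and 4.14 normalized counts in Tet2-KO, 20.6 and 28 in Tet2-Mut, and 6.66, 0 and 11.8 in Tet2-WT. The Tet2-Mut libraries were above all others, with a log2 fold change over Tet2-WT of 2.44 ± 1.17 (limma, adjusted p = 0.272). Hoxa7 had 41.3 and 10.3 normalized counts in Tet2-KO, 30.9 and 64.6 in Tet2-Mut, and 13.3, 7.53 and 0 in Tet2-WT. Both Tet2-Mut libraries were above the Tet2-WT range, and Tet2-KO replicate 1 lay between them. Hoxa10, a posterior gene of the uterus and hindlimb, had 16.5 and 16.5 normalized counts in Tet2-KO, 16.5 and 28.9 in Tet2-Mut, and 0, 5.65 and 2.36 in Tet2-WT. All 4 clones of Tet2-KO and Tet2-Mut were above the Tet2-WT cultures, of which 2 were under the floor of 3 reads. The log2 fold change was 2.64 ± 0.83 in Tet2-KO over Tet2-WT (limma, adjusted p = 0.0982) and 3.02 ± 0.83 in Tet2-Mut over Tet2-WT (limma, adjusted p = 0.0847). At so few reads these fold changes depend on the pseudocount: they were 1.09 and 1.37 with a pseudocount of 10. Without Tet2-WT replicate 2 they were 3.26 and 3.64.

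Of the Hoxb, Hoxc and Hoxd clusters, the member with the highest mean is given. Hoxb9, a trunk gene, had 53.7 and 24.8 normalized counts in Tet2-KO, 30.9 and 7.72 in Tet2-Mut, and 19.1, 15.1 and 4.72 in Tet2-WT. Hoxc13, known for its part in hair and nail formation, had 93.9 and 62 normalized counts in Tet2-KO, 51.5 and 36.7 in Tet2-Mut, and 91.5, 53.7 and 66.1 in Tet2-WT. Hoxd13, a gene of digits and the hindgut, had 68.1 and 26.9 normalized counts in Tet2-KO, 24.7 and 65.6 in Tet2-Mut, and 20, 16.9 and 40.1 in Tet2-WT. The groups overlapped for Hoxd13, while both Tet2-KO libraries of Hoxb9 were above the Tet2-WT range and both Tet2-Mut libraries of Hoxc13 were below all others. The 4 remaining genes of these clusters, Hoxb13, Hoxc4, Hoxd1 and Hoxd8, ranged from 0 to 33 normalized counts. Hoxd1, an anterior gene, was higher in both Tet2-KO libraries (33 and 12.4) than in Tet2-WT (9.99, 1.88 and 1.18). Tet2-WT replicates 2 and 3 were under the floor of 3 reads. The log2 fold change was 2.38 ± 0.94 (limma, adjusted p = 0.168) and ran from 1.17 to 3.09 over the alternatives. Of 14 listed noncoding genes of the Hox clusters, 1 was in the table, and it passed in none of the 3 comparisons.

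Msx genes, which act in the neural crest, limb and teeth, had positive fold changes in both genotypes. Msx1 had 55.7 and 60 normalized counts in Tet2-KO, 30.9 and 35.7 in Tet2-Mut, and 18.3, 11.3 and 30.7 in Tet2-WT. Both Tet2-KO libraries were highest, followed by both Tet2-Mut libraries, and the log2 fold change of Tet2-KO over Tet2-WT was 1.59 ± 0.45 (limma, adjusted p = 0.0741). Msx2 had 122 and 49.6 normalized counts in Tet2-KO, 39.1 and 57.9 in Tet2-Mut, and 23.3, 50.8 and 80.3 in Tet2-WT, with groups that overlapped. Msx3, a gene of the dorsal neural tube, had 33 and 18.6 normalized counts in Tet2-KO, 26.8 and 15.4 in Tet2-Mut, and 3.33, 13.2 and 4.72 in Tet2-WT, with every Tet2-KO and Tet2-Mut library above the Tet2-WT range. Its log2 fold change was 1.87 ± 0.65 in Tet2-KO (limma, adjusted p = 0.126) and 1.60 ± 0.65 in Tet2-Mut (limma, adjusted p = 0.206) over Tet2-WT.

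Dlx3, a regulator of placenta, skin and teeth, had 134 and 88.9 normalized counts in Tet2-KO, 98.9 and 71.4 in Tet2-Mut, and 219.7, 128 and 149 in Tet2-WT. Both Tet2-Mut libraries lay below the Tet2-WT range and Tet2-KO reached into it, and the log2 fold change of Tet2-Mut over Tet2-WT was -0.93 ± 0.31 (limma, adjusted p = 0.136). Dlx2, a gene of forebrain interneurons and the jaw, had 20.6 and 22.7 normalized counts in Tet2-KO, 18.5 and 23.2 in Tet2-Mut, and 13.3, 1.88 and 8.26 in Tet2-WT. All 4 clones were above the Tet2-WT range, in which replicate 2 was under the floor of 3 reads. The log2 fold change of Tet2-KO over Tet2-WT was 1.64 ± 0.70 (limma, adjusted p = 0.200). Dlx4 ranged from 11.4 to 25 normalized counts over the 7 libraries.

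Of the Irx, Lhx, Isl and Pax genes kept by the rule, 0 of 11 passed in any comparison (limma). Pax6, which the rule left out, rose in Tet2-KO and in Tet2-Mut over Tet2-WT (limma, adjusted p = 0.0176 and 0.0168). Irx2, the Irx gene with the highest mean, had 86.7 and 80.6 normalized counts in Tet2-KO, 88.6 and 199.7 in Tet2-Mut, and 113, 96 and 120.4 in Tet2-WT. Tet2-Mut replicate 2 was highest and the Tet2-KO libraries lowest. The other 4 Irx genes, which pattern the heart, the nervous system and the limb, ranged from 10.3 to 79.1. Lhx6, a factor of cortical interneurons, had 138 and 116 normalized counts in Tet2-KO, 115 and 155 in Tet2-Mut, and 141, 157 and 144 in Tet2-WT. Both Tet2-KO libraries and Tet2-Mut replicate 1 were below the Tet2-WT range, and Tet2-Mut replicate 2 lay inside it. Lhx2, needed by the forebrain and the eye, ranged from 20.7 to 61.7, highest in the Tet2-Mut libraries. Isl1, a marker of motor neurons and heart progenitors, had 26.8 and 12.4 normalized counts in Tet2-KO, 25.7 and 18.3 in Tet2-Mut, and 25, 28.2 and 14.2 in Tet2-WT, with groups that overlapped, and Isl2 ranged from 4.72 to 24.8. Pax8, required for the thyroid and kidney, had 111 and 60 normalized counts in Tet2-KO, 119 and 27 in Tet2-Mut, and 53.3, 65.9 and 113 in Tet2-WT. All groups overlapped, and the clones of Tet2-Mut lay on either side of the Tet2-WT range. The B cell gene Pax5 ranged from 5.79 to 28.2.

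The homeobox genes also differed between clones of a genotype. Relative to the Tet2-WT mean, the median of the 49 genes was 0.30 and -0.12 on the log2 scale in the Tet2-KO libraries, 0.21 and 0.55 in the Tet2-Mut libraries and between -0.021 and 0.10 in the Tet2-WT libraries, while that of all genes lay between -0.0018 and 0.010. Tet2-Mut replicate 2 held the highest value of 20 of the 49 genes (40.8%, beside 21.7% of all genes) and Tet2-KO replicate 1 of 15 (30.6%, beside 21.1%). Tet2-KO replicate 2 and Tet2-Mut replicate 1 held 2 and 1 (4.08% and 2.04%, beside 12.8% and 11.6% of all genes). The fibroblast markers took another order: their median was 1.51 and 0.84 in Tet2-KO, 0.64 and 0.23 in Tet2-Mut, and between -0.051 and 0.086 in Tet2-WT. In Tet2-KO over Tet2-WT, 8 of the 24 rose and 0 fell (limma; 0 to 15 rose and 0 fell over 26 alternatives), with a median log2 fold change of 1.18, and 0 of the 24 were listed at 0 in any library. Of all genes, 5.91% passed in that comparison in either direction. Tet2-Mut replicate 2, in which the homeobox genes were highest, had the lowest fibroblast level of the 4 clones. In Tet2-KO both were highest in replicate 1. The part of feeder cells in the values of the homeobox genes, Meis2, Meis3 and Msx1 among them, was not tested.

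**Figure D4:**
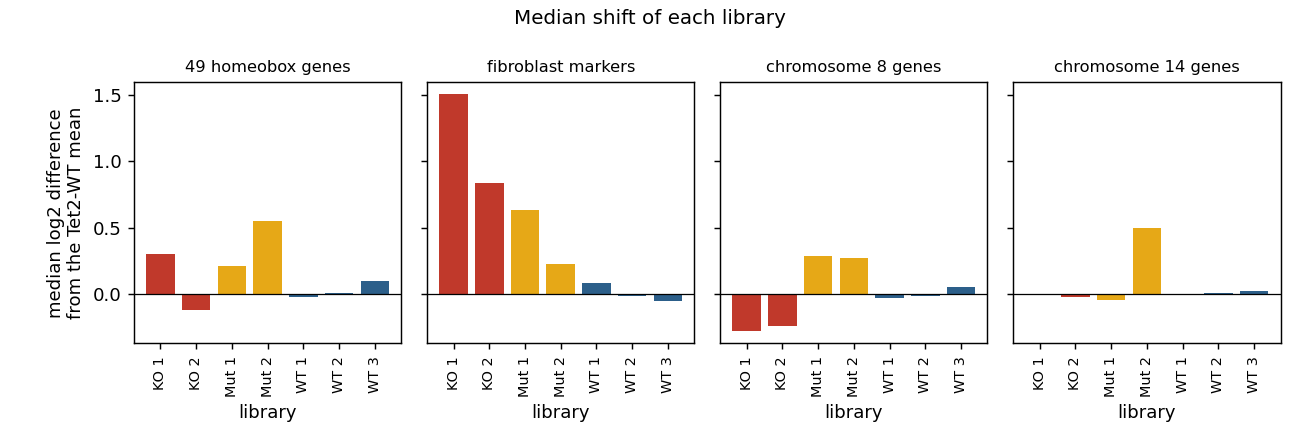
Median log2 difference from the Tet2-WT mean in each library (bars, Tet2-KO, Tet2-Mut and Tet2-WT from left to right) for the 49 homeobox genes, 24 fibroblast markers, 860 genes of chromosome 8 and 568 genes of chromosome 14. The homeobox genes peak in Tet2-Mut replicate 2 at 0.55, the fibroblast markers in Tet2-KO replicate 1 at 1.51, chromosome 8 is negative in Tet2-KO and positive in Tet2-Mut, and chromosome 14 stands out in Tet2-Mut replicate 2.

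Lists of genes that act on homeobox genes are given here for the comparisons with Tet2-WT only. Of 33 Polycomb genes, 1 rose (Yaf2) and 1 fell (Suz12) in Tet2-KO relative to Tet2-WT and 1 rose (Eed) and 3 fell (Suz12, Phf19, Pcgf5) in Tet2-Mut, where 5.91% and 3.43% of all genes passed in either direction. Over 26 alternatives 0 to 2 rose and 0 to 3 fell in Tet2-KO, and 0 to 6 rose and 0 to 4 fell in Tet2-Mut. Suz12 and Eed are core subunits of the Polycomb complex that marks histone H3, and Phf19 is an accessory one. Phf19 had 2266 and 2885 normalized counts in Tet2-KO, 1323 and 1386 in Tet2-Mut, and 2823, 2759 and 2644 in Tet2-WT, and its log2 fold change in Tet2-Mut over Tet2-WT was -1.02 ± 0.11 (limma, adjusted p = 0.00631, but 0.0701 without Tet2-WT replicate 1 and 0.0629 without Tet2-WT replicate 2). The 18 Trithorax and MLL genes gave 0 calls in Tet2-KO (limma; 5 at an unadjusted p under 0.05, and 0 to 2 over 26 alternatives) and 1 in Tet2-Mut, a rise of Ash2l, which lies on chromosome 8 (0 to 2 rose over 26 alternatives). The median log2 fold change in Tet2-KO and in Tet2-Mut was 0.019 and 0.041 for the Polycomb genes and 0.067 and 0.13 for the Trithorax genes.

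Of 14 retinoic acid genes, 2 rose in Tet2-KO relative to Tet2-WT, Cyp26a1, which breaks retinoic acid down, and Crabp2, which carries it to its receptor, and 0 fell (0 to 3 rose and 0 fell over 26 alternatives), beside 5.91% of all genes. Cyp26a1 had 316 and 227 normalized counts in Tet2-KO, 50.5 and 46.3 in Tet2-Mut, and 74.1, 97.9 and 59 in Tet2-WT. Tet2-KO stood above all other libraries, and the log2 fold change was 1.82 ± 0.29 (limma, adjusted p = 0.0134, but 0.113 without Tet2-KO replicate 1, 0.0711 without Tet2-WT replicate 1 and 0.0626 without Tet2-WT replicate 3). In Tet2-Mut the receptor gene Rarg rose and Rxra fell (0 to 2 rose and 0 to 1 fell over 26 alternatives), beside 3.43% of all genes. The median log2 fold change of the list was 0.23 in Tet2-KO and 0.11 in Tet2-Mut.

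Among 28 homeobox genes outside the families above, 4 rose and 0 fell in Tet2-KO over Tet2-WT: Cdx2, a regulator of posterior Hox genes and of trophectoderm, Evx1, En1 and Pou3f1 (0 to 7 rose and 0 to 1 fell over 26 alternatives). Cdx2 had 103 and 68.2 normalized counts in Tet2-KO, 12.4 and 19.3 in Tet2-Mut, and 11.7, 18.8 and 14.2 in Tet2-WT. Both Tet2-KO libraries were above all others, at a log2 fold change of 2.44 ± 0.44 (limma, adjusted p = 0.0184). Without Tet2-KO replicate 1 the adjusted p (limma) was 0.155, and without Tet2-WT replicate 1, 2 or 3 it was 0.0840, 0.0637 or 0.0741. In Tet2-Mut, Satb1 rose and Nanog fell relative to Tet2-WT (0 to 4 rose and 0 to 2 fell over 26 alternatives). The median log2 fold change of this list was 0.018 in Tet2-KO and 0.24 in Tet2-Mut. Among 7 neural markers, 3 rose in Tet2-KO (Nes, Map2 and Pax6) and 1 in Tet2-Mut (Pax6), relative to Tet2-WT (limma). The fold change was positive for 4 of the 7 in Tet2-KO and for 6 in Tet2-Mut. Sox1 went the other way in Tet2-KO, at 88.8 and 76.5 normalized counts beside 156, 217 and 354 in Tet2-WT. Its log2 fold change there was -1.46 ± 0.45 (limma, adjusted p = 0.0894). Of 9 mesoderm markers 1 rose in Tet2-KO (T) and 1 fell in Tet2-Mut (Eomes), again relative to Tet2-WT (limma). Over 26 alternatives 0 to 3 neural and 0 to 1 mesoderm markers rose in Tet2-KO, and in Tet2-Mut 0 to 2 neural markers rose and 0 to 1 mesoderm markers fell, where 5.91% of all genes passed in Tet2-KO and 3.43% in Tet2-Mut. Both comparisons share the Tet2-WT libraries.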

How the data were processed

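Values for 17342 genes in 7 libraries were used as the authors deposited them, as a linear signal per gene: counts divided by the DESeq2 size factor of the library. Trim Galore 0.6.5, STAR 2.7.3a, featureCounts, DESeq2 and the mm10 build are named, per the submitters' processing notes, while the annotation and the strand setting are not given in the sources used here. In each library all values were whole multiples of a step (within 0.01 reads), which returned the reads used for edgeR and DESeq2. Of the values from 1 to 20 reads, 72.1% to 75.2% were even, so mates may have been counted separately. The lowest total of a gene over the libraries was 71 reads. The bisulfite and CUT&Tag samples were not analysed here.

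Groups were compared by limma 3.58.1 (R 4.3.3) after adding 1 and taking log2. The 17338 genes that reached 10 normalized counts in 2 or more libraries entered a model with 1 mean for each genotype, in which all 7 libraries shared the spread, with a mean-trended prior (prior degrees of freedom 5.03, residual 4) and Benjamini-Hochberg adjustment over all these genes at 0.05. Log2 fold changes on this scale understate changes of low genes, and ± gives their standard error. The code was tested on simulated data. As alternatives, edgeR 4.0.16 (quasi-likelihood with TMM) and DESeq2 1.42.0 were run, and other pseudocounts, filters and scalings, fits of the groups compared alone, a replicate block and leaving out each library were tried. Centring on chromosome medians, and edgeR without single libraries, were added after the data had been seen.

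The homeobox genes and the gene lists were chosen with earlier results of these data known. All 49 genes enter the counts, and 4 of them are not reported here by name or value. Values by library are given for genes past the test, their paralogs and the member of each family or Hox cluster with the highest mean, and for others named in the text as chosen after their values had been seen. From each list of other genes, up to 4 with the smallest p are named for a comparison. Coordinates and promoter windows are those of RefSeq GRCm38.p6. CpG sites and the letters TAAT, TATAA and ATGCAAAT (both strands) were counted in the windows, and ATGCAAAT was found in 0 of the 40 windows, beside 1.74% of all.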

Additional observations from a re-analysis of the deposited data

How the results depend on the processing

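The counts of homeobox genes past the test in Tet2-KO over Tet2-WT (0), Tet2-Mut over Tet2-WT (0) and Tet2-KO over Tet2-Mut (2) were also obtained with a pseudocount of 0.5 or 10, no filter, a filter of 50, upper quartile scaling, quantile normalization and edgeR. DESeq2 gave 3, 4 and 7. A fit of only the groups compared gave 5, 0 and 0, where 2153, 901 and 0 of all genes passed. A prior without trend gave 0, 0 and 0 (19, 0 and 10 of all genes), and chromosome centring gave 0, 0 and 0 (912, 394 and 463 of all genes). Where few or no genes passed at all, a count of 0 homeobox genes shows nothing particular to them. Leaving out 1 library gave 0 to 5, 0 to 6 and 0 to 8 with limma, and with edgeR 0 to 5 (5 without Tet2-Mut replicate 1 or 2), 0 to 7 (7 and 1 without Tet2-Mut replicate 1 and 2) and 0 to 8 (8 without Tet2-Mut replicate 1, 1 without Tet2-KO replicate 1 or Tet2-WT replicate 1 or 3, 0 without the others). Where a genotype was left with 1 library, it was assumed to vary like the others. Without Tet2-WT replicate 1, 2 or 3, few of all genes passed over Tet2-WT (limma): 94, 98 or 85 in Tet2-KO and 7, 6 or 123 in Tet2-Mut. The labels do not say that replicate numbers pair samples, and same-numbered libraries correlated at -0.0729 to 0.0871 in their deviations. The fit with a replicate block gave 0, 0 and 0, where 15, 7 and 467 of all genes passed.

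Of the log2 fold changes recomputed for named genes, 679 kept direction and call, 28 passed the test only under the alternative, 33 lost it and 10 changed sign; the cause was not tested. In Tet2-KO over Tet2-WT, leaving out 1 library moved Meis1 between -0.78 and 0.17 and Six4 between -0.19 and 0.10. In Tet2-Mut over Tet2-WT it moved Nkx6-2 between -0.074 and 1.68, Nkx6-3 between -1.94 and 1.43, and Six4 between -0.10 and 0.043. Nkx6-3 there was -0.26 with limma on all libraries, 0.54 with edgeR and 0.52 with DESeq2. Chromosome centring turned Pbx4 to -0.053 in Tet2-Mut over Tet2-WT and to 0.029 in Tet2-KO over Tet2-Mut. Standard errors in Tet2-KO over Tet2-WT ran from 0.10 (Pbx2) to 1.17 (Hoxa5) on the log2 scale, and 15 homeobox genes had a mean below 20 normalized counts.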
